A study of Homo sapiens with 60 samples.

Results

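The genes described here encode enzymes that write or erase marks on histones and DNA, together with the partners that one of these enzymes, EZH2, needs for its activity. Members were taken by symbol: the KDM lysine demethylases except the Y-linked one, the KMT2, KMT5 and SETD methyltransferase families, the histone deacetylases (HDACs), the sirtuins, the Polycomb repressive complex 2 (PRC2) genes EZH1, EZH2, SUZ12, EED and JARID2, the DNA methyltransferases DNMT1, DNMT3A and DNMT3B, the TET dioxygenases and the acetyltransferases EP300 and CREBBP. This gave 67 of the 19712 genes in the files. Grouped by family name or role, they were 17 KDM demethylases, 7 methyltransferases of histone H3 lysine 4 (H3K4), 3 of histone H4 lysine 20 (H4K20) and 9 other SET domain genes. The others were 5 PRC2 genes, 4 class I HDACs, 7 class II and IV HDACs, 7 sirtuins, 3 DNA methyltransferases, 3 TET genes and 2 acetyltransferases.

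As background, acetyl groups placed on histones by EP300 and CREBBP open chromatin, and HDACs and sirtuins take them off. Methyl groups on H3K4 mark active genes, whereas methylation of H3K27 by PRC2, through its alternative catalytic subunits EZH2 and EZH1, keeps genes silent; KDM enzymes remove both kinds of mark. DNMT1 copies DNA methylation onto the new strand after replication, DNMT3A and DNMT3B place it anew, and TET enzymes oxidise it. Cancer cells that outlive a targeted drug without a resistance mutation, called drug-tolerant persisters (DTPs), have been studied for their dependence on chromatin enzymes such as KDM5A.

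RNA-Seq was made from PC9, HCC827, H1975 and HCC2935, 4 established non-small cell lung cancer lines with a mutant epidermal growth factor receptor (EGFR), each in 5 arms with 3 replicates (60 libraries). The DMSO arm received the solvent for 24 h and the acute arm 500 nM osimertinib, an EGFR inhibitor, for 24 h. The DTP arm received 500 nM osimertinib for 21 days, and no arm received the solvent for that time. In the short washout the drug was removed from DTPs for 24 h, and in the long washout for 7 days in PC9, 4 days in HCC827, 3 days in H1975 and 10 days in HCC2935, so that line and washout length cannot be told apart. The persister and washout arms hold only cells that survived the drug, and nothing in the labels says that replicates were separate cultures, so the p-values measure the spread between these samples, which may be technical.

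Libraries held 17.7 to 49.1 M estimated counts, from 17.7 to 25.6 M in HCC827 and HCC2935 and from 34.7 to 49.1 M in PC9 and H1975, and the spread between replicates exceeded counting error in 60 of 60 replicate pairs. The treatment labels were checked with ERK feedback genes: in the 4 lines together DUSP6, measured against DMSO, fell by 4.64 ± 0.34 on the log2 scale in the acute arm and fell by 3.01 ± 0.43 in DTPs. HCC827 was an exception, with a DUSP6 change of -0.34 ± 0.35 in DTPs that did not pass; without that line 41 members were called in DTPs. All 12 proliferation genes examined (among them MKI67, TOP2A and CDK1) were also lower in both arms. Keratin KRT8 was at 575 TPM (a transcript level corrected for length and library size) or more in every library, whereas SFTPB, a surfactant gene of alveolar cells, was at 2.73 TPM at most. NAPSA, another lung epithelial gene, reached 184 TPM in HCC827 and 421 TPM in HCC2935, but only 3.90 in PC9 and 6.25 in H1975. The summed 4 fibroblast markers lay between 5.02 and 198.6 TPM, and the summed 4 leukocyte markers between 9.91 and 175.5 TPM. Among the leukocyte markers PTPRC was at 3.48 TPM at most, whereas CD68 reached 175 TPM in HCC827. Some libraries stood apart. In H1975, CDH1, the epithelial cadherin, was at 1.28 to 3.04 TPM in the 9 DTP and washout libraries against 40.2 to 134 TPM in the 6 others, and EPCAM moved with it. In HCC827, CDH1 was at 40.3 to 168 TPM in the DTP and washout libraries against 310 to 456 TPM in the others. The part of these epithelial genes in the results was not tested. Without H1975, 37 members in place of 39 were called in DTPs and 20 in place of 28 after the long washout. In PC9 the long washout replicates were unlike each other, with the summed proliferation genes lowest in replicate 3.

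The promoters of 3 members whose changes against DMSO were among the most extreme are shown because the results turn on these genes: KDM7A, a demethylase that rose, and EZH2 and DNMT1, which fell most. RefSeq promoters (GRCh38.p14, 250 bases before the transcription start and 50 after) were found for 64 of the 67 members, all but HDAC5, SIRT7 and SETD1B. Each line below gives the 250 bases before the first listed start and the 15 bases that follow, 5′ to 3′ on the gene's own strand. Capitals mark the letters that matched a motif on either strand: TTTCCCG or TTTGGCG or TTTCGCG for E2F; the CCAAT box; or GGGCGG for SP1.
KDM7A (minus strand, chr7:140176969-140177233): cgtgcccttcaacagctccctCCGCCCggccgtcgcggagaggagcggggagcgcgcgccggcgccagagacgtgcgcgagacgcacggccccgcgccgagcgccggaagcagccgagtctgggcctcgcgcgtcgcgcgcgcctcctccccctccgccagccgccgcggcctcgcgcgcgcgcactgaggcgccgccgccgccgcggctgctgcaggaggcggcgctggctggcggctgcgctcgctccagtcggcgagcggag
EZH2 (minus strand, chr7:148884277-148884541): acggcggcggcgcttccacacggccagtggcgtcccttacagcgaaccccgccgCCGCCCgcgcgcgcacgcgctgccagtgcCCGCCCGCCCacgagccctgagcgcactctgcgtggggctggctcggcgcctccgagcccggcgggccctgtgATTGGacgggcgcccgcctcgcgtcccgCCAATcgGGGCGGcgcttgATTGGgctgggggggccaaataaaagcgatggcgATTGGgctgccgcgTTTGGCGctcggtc
DNMT1 (minus strand, chr19:10194939-10195203): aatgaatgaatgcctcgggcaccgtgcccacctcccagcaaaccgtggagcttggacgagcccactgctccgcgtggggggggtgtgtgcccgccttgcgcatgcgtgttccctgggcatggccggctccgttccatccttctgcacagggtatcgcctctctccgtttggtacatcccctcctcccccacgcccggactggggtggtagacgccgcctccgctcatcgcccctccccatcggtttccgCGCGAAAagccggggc

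The 265 bases of EZH2 held 4 CCAAT and 4 SP1 matches, and 1 E2F match that began 2 bases after the start. DNMT1 held 1 E2F match across the start and none of the others, and KDM7A held 1 SP1 match only. These stretches were rich in G and C, with 81.1% in KDM7A, 75.1% in EZH2 and 67.2% in DNMT1. Of the 102 promoters of members, 11.8% held an E2F match against 7.21% of all 35116 promoters, and 66.7% held an SP1 match against 45.0%. E-box letters (CACGTG) stood in 12.7% against 7.26%, and CCAAT in 32.4% against 34.6%. The cell cycle element TTTGAA (CHR) was in 7.84% against 15.2%, the FOXO letters GTAAACA in 2.94% against 3.42% and the AP-1 letters TGAGTCA in 2.94% against 4.95%. The 11 members with an E2F match were DNMT1, EZH1, EZH2, SUZ12, KMT5A, KMT5B, KMT2D, KDM1B, KDM2B, KDM5A and SIRT6, of which some rose and others fell. A match describes the letters and shows no binding, and promoters with many G and C bases hold GGGCGG more readily.

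Under DMSO, most members were expressed at moderate levels. Between 47 and 53 of the 67 had a mean of at least 10 TPM in a line, and the median member stood at 16.5 to 20.8 TPM. HDAC2 was the highest member in PC9 (187 TPM) and HCC2935 (133 TPM), and DNMT1 in HCC827 (146 TPM) and H1975 (148 TPM), where H1975 also carried much KDM2A (118 TPM). At the other end, TET1, SIRT4, KDM7A and KDM4D had line means of at most 3.35 TPM. In PC9 the gap between HDAC2 (187 TPM) and the next member, HDAC1 (99.8 TPM), was wide, while HDAC1 and DNMT1 (88.5 TPM) lay closer together.

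Acute osimertinib changed 50 of the 67 members in the 4 lines together, 32 higher and 18 lower (edgeR quasi-likelihood test with the line as covariate, adjusted p under 0.05 over all genes). That was 74.6% of the members, where 66.3% of all 14173 genes tested were called, and 47.8% were higher against 35.1% of all genes. The median member moved by 0.10 on the log2 scale and the median gene by 0.05. HDAC5, KDM7A, HDAC11, SIRT4 and KDM5B rose most, and EZH2, DNMT1, KMT5A, HDAC4 and SUZ12 fell most. In DTPs 39 members differed from DMSO, 23 higher and 16 lower, and this 58.2% equalled the background of 58.2%. The highest were HDAC5, KDM7A, KDM6B, SIRT4 and KDM5B, and the lowest EZH2, DNMT1, HDAC1, KMT5A and SUZ12. Fits of log2 TPM without rescaling between libraries called 30 members higher and 9 lower in DTPs. Log2 TPM differences stood above the rescaled ones by a median over genes of 0.267 in PC9 and 0.172 in HCC2935. The part of this shift in the other split was not tested. With RLE size factors 27 were higher and 12 lower. None of the 39 called members changed sign. Acute, DTP and long washout were all compared with the same DMSO libraries, so their values stand side by side here as separate measurements that share controls. RNA of whole cultures was measured throughout, so fewer cells with a transcript and less of it per cell cannot be told apart.

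**Figure D1:**
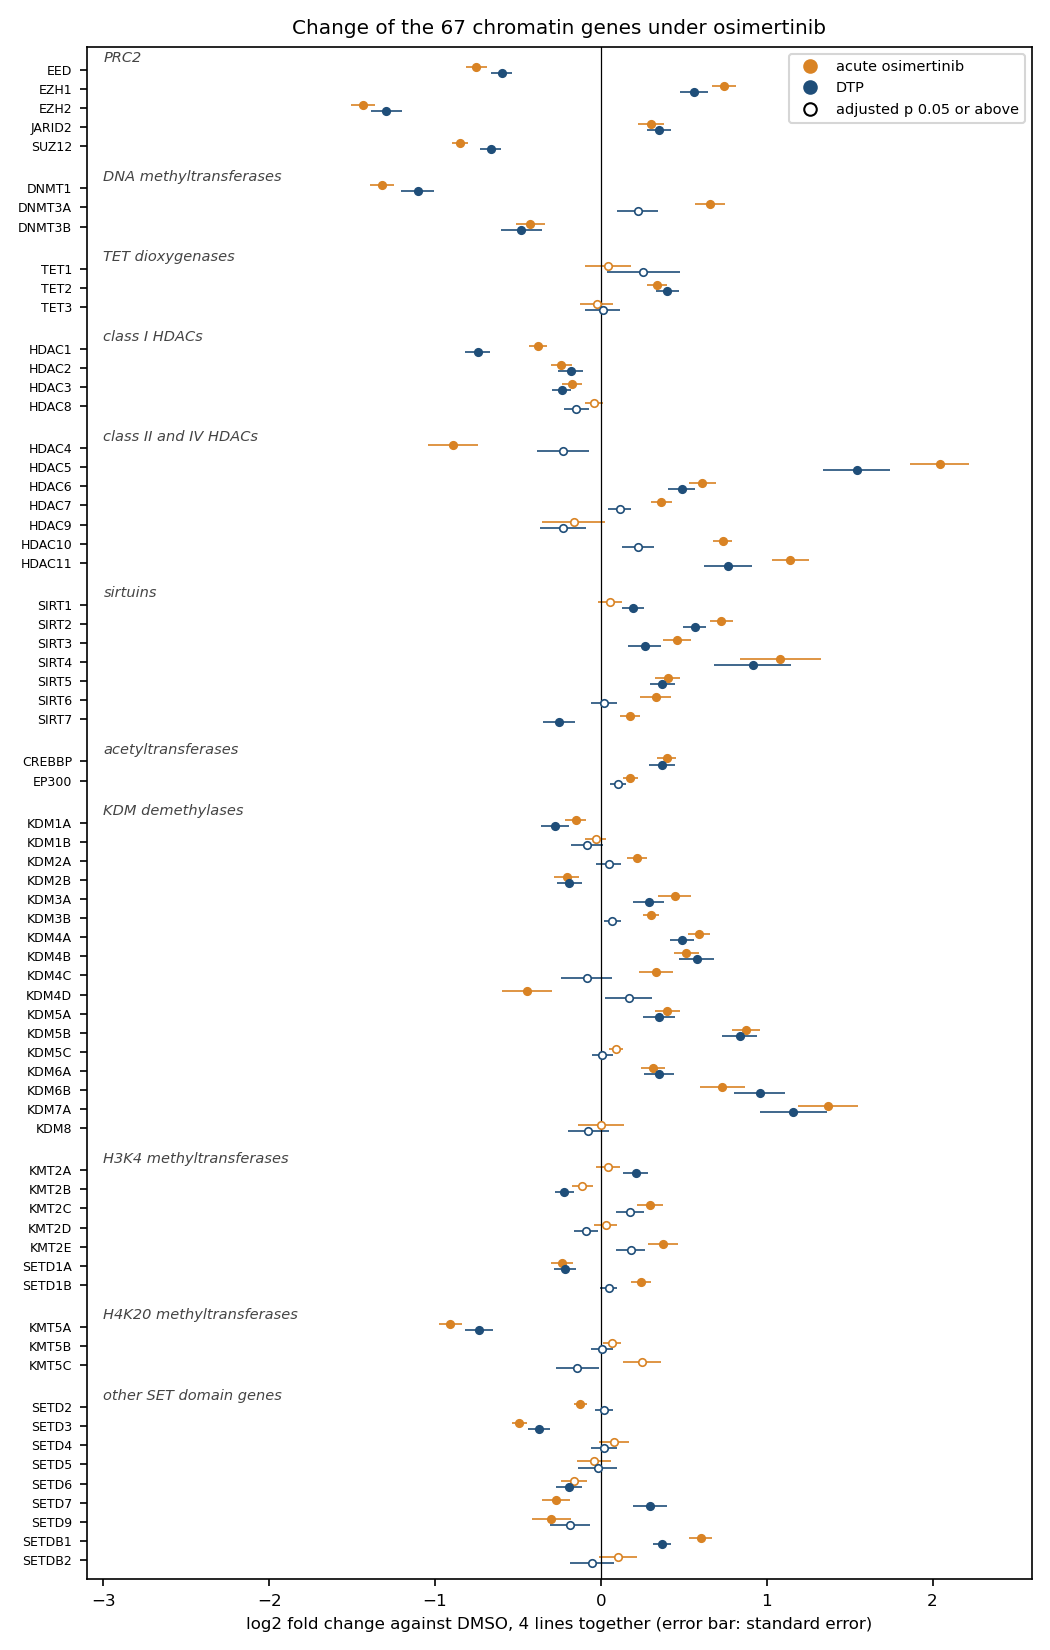
Log2 fold change of each of the 67 genes against DMSO in the 4 lines together, grouped by role, for acute osimertinib (orange) and DTPs (blue); bars are standard errors and open points have an adjusted p of 0.05 or above. HDAC5 lies farthest to the right, at 2.04 in the acute arm, and EZH2 farthest to the left, at -1.44.

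In PRC2 the core subunits fell while the alternative catalytic subunit rose. EZH2, the methyltransferase of dividing cells, changed by -1.44 ± 0.071 (log2 fold change ± SE) under acute osimertinib and by -1.29 ± 0.094 in DTPs, with adjusted p values of 8.20e-14 and 3.43e-10. SUZ12 and EED, which hold the complex together, changed by -0.85 and -0.75 under the acute drug and by -0.66 and -0.60 in DTPs. EZH1, the catalytic subunit typical of resting cells, rose by 0.74 ± 0.073 and 0.56 ± 0.085, and JARID2, which guides the complex to its sites, by 0.30 and 0.35. All 5 genes passed the test in both comparisons, as did 9393 of all 14173 genes in the acute arm and 8271 of 14200 in DTPs. In each line alone EZH2, SUZ12 and EED were lower in both arms. EZH1 was higher in 4 of 4 lines under the acute drug. In DTPs it was higher in 3 of 4, with 0.29 and no call in HCC2935. Of all genes, 12.7% were lower and 6.76% higher in all 4 lines under the acute drug, and 7.59% were lower in DTPs.

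The libraries show this gene by gene. In PC9, EZH2 stood at 37.7, 35.5 and 37.9 TPM under DMSO, at 13.4, 11.4 and 14.7 in the acute arm and at 21.9, 23.8 and 22.6 in DTPs. In HCC827 it stood at 33.7, 34.8 and 35.4 under DMSO, at 18.2, 16.3 and 16.2 in the acute arm and at 15.1, 20.3 and 17.2 in DTPs. H1975 had 48.9, 40.9 and 49.3 TPM under DMSO, 16.5, 14.96 and 17.7 in the acute arm and 14.6, 20.8 and 17.7 in DTPs. All treated libraries of these lines lay below their DMSO libraries. HCC2935 had the most EZH2, with 56.6, 59.0 and 64.3 TPM under DMSO, and fell to 14.8, 21.0 and 19.4 in the acute arm and to 19.4, 18.1 and 19.7 in DTPs. For EZH1, PC9 gave 10.6, 10.2 and 10.9 TPM under DMSO and 16.1, 22.0 and 16.4 in DTPs. HCC827 gave 12.9, 9.38 and 14.4 against 17.3, 22.8 and 19.5. H1975, the line with the most EZH1, gave 16.2, 22.4 and 16.99 against 31.5, 30.6 and 30.9. Every DTP library was above every DMSO library of its line, also in HCC2935, where 11.1, 11.97 and 11.3 TPM stood against 15.1, 17.2 and 15.

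EZH2 exceeded EZH1 in TPM in every DMSO library, and this ratio is a level within a library that needs no scaling between libraries. Its mean went from 3.499 ± 0.060 (SD, n = 3) under DMSO to 0.806 ± 0.14 under the acute drug in PC9, from 2.92 ± 0.69 to 0.807 ± 0.056 in HCC827, from 2.58 ± 0.66 to 0.514 ± 0.047 in H1975 and from 5.25 ± 0.40 to 0.957 ± 0.15 in HCC2935. The acute and DMSO libraries did not overlap in any line. In DTPs the mean was 1.27 in PC9, 0.881 in HCC827, 0.572 in H1975 and 1.22 in HCC2935. After the long washout it was 2.93 ± 0.85 in PC9 (7 days) and 3.25 ± 0.80 in HCC2935 (10 days), and 1.08 ± 0.30 in HCC827 (4 days) and 0.529 ± 0.051 in H1975 (3 days).

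**Figure D2:**
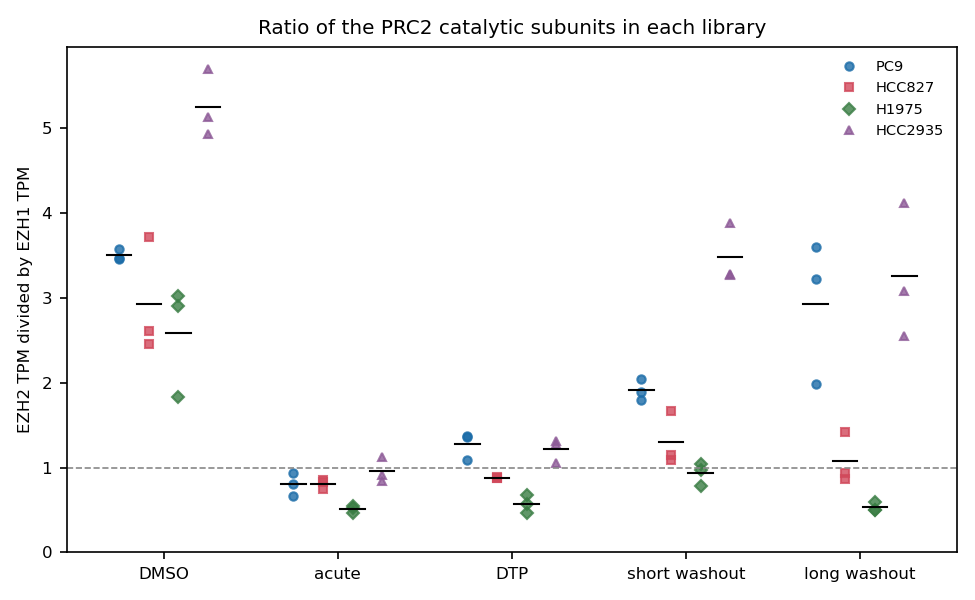
EZH2 TPM divided by EZH1 TPM in each library (points, 4 lines, 5 arms), with the mean of 3 replicates as a black line and a dashed line where both genes are equal. The DMSO libraries lie between 1.83 and 5.69, the acute libraries between 0.461 and 1.12, and the long washout libraries of PC9 and HCC2935 above those of HCC827 and H1975.

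DNMT1 moved with EZH2, whereas the other DNA methyltransferases did not move together. DNMT1 changed by -1.32 ± 0.072 under acute osimertinib and by -1.11 ± 0.10 in DTPs, and it was lower in each line alone in both arms, from -0.67 in H1975 to -1.64 in HCC2935 among DTPs. In PC9 it stood at 91.2, 84.6 and 89.9 TPM under DMSO, at 40.2, 25.6 and 41.4 in the acute arm and at 48.0, 51.6 and 45.2 in DTPs. In HCC827 it stood at 145, 165 and 127 TPM, then at 52.5, 53.1 and 63.5 and at 76.1, 83.3 and 67.9. These groups do not overlap with DMSO in either line. H1975 had 134, 184 and 126 TPM under DMSO, 67.9, 57.8 and 63.7 in the acute arm and 80.6, 112 and 81.8 in DTPs. HCC2935 had 91.4, 106 and 106 TPM, then 33.6, 38.5 and 44.8, and then 38.7, 30.9 and 39.99. Again no treated library reached the DMSO range of its line. The 12 proliferation genes moved beside EZH2 and DNMT1: their summed level fell from a mean of 1457 to 401 TPM in PC9 under the acute drug, from 1592 to 313 in HCC827, from 1979 to 413 in H1975 and from 1544 to 310 in HCC2935. The part of proliferation in the fall of EZH2, SUZ12, EED, DNMT1 and KMT5A was not tested.

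DNMT3B fell by 0.42 ± 0.088 in the acute arm and by 0.48 ± 0.12 in DTPs. DNMT3A rose by 0.66 ± 0.090 in the acute arm, but in DTPs its 0.22 ± 0.12 did not pass the test by edgeR. On log2 TPM limma called it higher in DTPs (0.33, adjusted p = 0.0133). Single lines went opposite ways in DTPs: DNMT3A was higher in H1975 (0.83) and HCC827 (0.47) and lower in HCC2935 (-0.36). Among the TET genes, TET2 rose by 0.34 ± 0.063 and 0.40 ± 0.070. TET1, with line means of 0.122 to 0.574 TPM under DMSO, passed in PC9 DTPs alone (1.39), and TET3 showed 0.01 ± 0.10 in DTPs of the 4 lines together, from -0.53 in HCC2935 to 0.33 in H1975.

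The histone deacetylases were counted by class, and no test compared the classes. Of the 4 class I genes, of which HDAC1, HDAC2 and HDAC3 are core subunits of nuclear corepressor complexes, 3 fell in both comparisons and none rose, where 31.2% and 29.3% of all genes fell. HDAC1 fell by 0.38 ± 0.055 in the acute arm and by 0.74 ± 0.076 in DTPs, HDAC2 by 0.24 and 0.18, and HDAC3 by 0.18 and 0.24, while HDAC8 did not pass (-0.04 and -0.15). On the scale of log2 TPM, HDAC1 was the only one of these still called in DTPs. HDAC1 was lower in DTPs of each line alone. Its DMSO libraries held 98.8, 98.1 and 103 TPM in PC9 against 66.2, 71.7 and 72.0 in DTPs, and 111, 116 and 112 TPM in HCC827 against 83.4, 82.0 and 82.0. In H1975, 104, 82.4 and 105 TPM stood against 65.4, 73.0 and 55.3, and in HCC2935, 75.5, 80.7 and 77.5 against 43.1, 32.5 and 44.01. No DTP library overlapped with the DMSO libraries of its line.

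Of the 7 class II and IV genes, 5 rose and 1 fell in the acute arm, where 35.1% of all genes rose, and 3 rose in DTPs, where 28.9% did. HDAC5, a class IIa deacetylase that shuttles between nucleus and cytoplasm, had the largest rise of all members, by 2.04 ± 0.18 in the acute arm and 1.54 ± 0.20 in DTPs (adjusted p of 9.00e-10 and 1.06e-06), and it was higher in each line alone. HDAC11, the class IV enzyme, rose by 1.14 ± 0.11 and 0.77 ± 0.14, and HDAC6, a mostly cytoplasmic tubulin deacetylase, by 0.61 and 0.49. HDAC10 and HDAC7 rose in the acute arm (0.73 and 0.36) and were not called in DTPs by edgeR (0.23 and 0.11), whereas limma on log2 TPM called both higher there (0.33 and 0.22, adjusted p of 0.00566 and 0.00747); the exons of HDAC10 share 2763 bases with MAPK12 on the same strand, so its reads may be split. HDAC4, a relative of HDAC5 in class IIa, went the other way, with -0.89 ± 0.15 in the acute arm and -0.23 ± 0.16, which did not pass, in DTPs.

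For HDAC5 the separation was wide in PC9, with 4.01, 7.10 and 6.15 TPM under DMSO, 45.5, 51.9 and 51.5 in the acute arm and 48.1, 51.4 and 49.8 in DTPs. HCC827 had 11.1, 5.84 and 10.2 TPM under DMSO, 30.2, 36.8 and 38.9 in the acute arm and 29.4, 18.4 and 25.8 in DTPs. H1975 had 12.8, 12.9 and 10.9 TPM, then 28.2, 29.4 and 29.3, and then 23.9, 18.1 and 23.8. All treated libraries were above DMSO in these lines. HCC2935 had 5.46, 7.79 and 7.91 TPM under DMSO, 25.04, 23.8 and 30.03 in the acute arm and 19.3, 15.97 and 16.2 in DTPs, again with no overlap. The effect on HDAC5 differed between lines in both comparisons (adjusted p of the line by treatment term 1.28e-04 and 6.50e-05), being 3.11 in PC9 and 1.23 in H1975 under the acute drug.

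**Figure D3:**
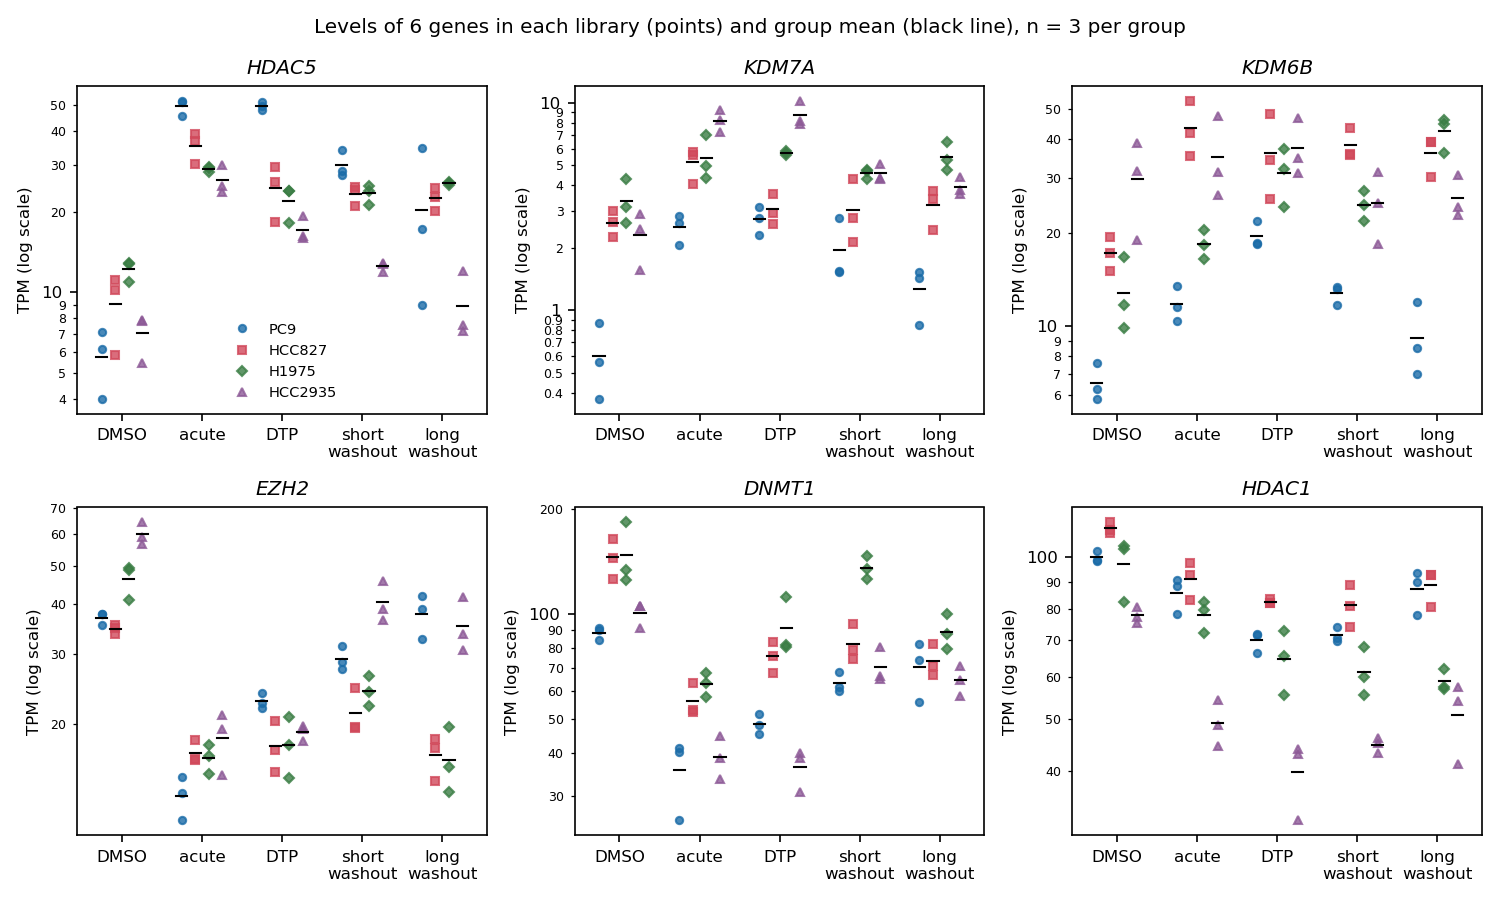
TPM on a log scale in each of the 60 libraries for 6 genes, with points for the 3 replicates of each line and arm and a black line for their mean. HDAC5 is higher in all acute and DTP libraries than in the DMSO libraries of the same line, and EZH2 and DNMT1 are lower.

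Among the sirtuins, deacetylases that use NAD+, 6 of 7 rose in the acute arm, where 35.1% of all genes did, with SIRT1 at 0.06 and not called. SIRT4, a mitochondrial member with line means of at most 1.55 TPM under DMSO, rose by 1.08 ± 0.25, and SIRT2, mostly cytoplasmic, by 0.73 ± 0.069. In DTPs 5 rose, where 28.9% of all genes did, and SIRT7, a nucleolar member, fell by 0.25 ± 0.096, a call that was not made on log2 TPM. SIRT1 rose there by 0.20 ± 0.066. SIRT2 was higher in each line alone in both arms, from 0.43 to 0.83 in DTPs. Of the acetyltransferases, CREBBP rose by 0.40 ± 0.056 and 0.37 ± 0.080, and EP300 by 0.18 ± 0.047 in the acute arm with 0.10 ± 0.050 and no call in DTPs, where limma on log2 TPM called it higher (0.22, adjusted p = 0.00048).

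Of the 17 KDM demethylases, 11 rose and 3 fell under acute osimertinib, where 35.1% of all genes rose and 31.2% fell, and 8 rose and 2 fell in DTPs, where 28.9% rose and 29.3% fell. KDM7A, which removes repressive methyl marks from H3K9 and H3K27, rose by 1.37 ± 0.18 and 1.16 ± 0.20. KDM6B, an H3K27 demethylase, rose by 0.73 ± 0.13 and 0.96 ± 0.15, and its relative KDM6A by 0.31 and 0.35. KDM5B, an H3K4 demethylase, rose by 0.88 ± 0.082 and 0.84 ± 0.11, more than its relative KDM5A, which rose by 0.40 ± 0.074 and 0.35 ± 0.097. The H3K9 demethylases KDM4A and KDM4B also rose in both arms (0.49 and 0.58 in DTPs), while KDM1A, which demethylates H3K4, fell by 0.15 and 0.27, and KDM2B by 0.21 and 0.19. On log2 TPM KDM2B was at -0.08 in DTPs and not called.

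KDM7A was scarce in PC9 under DMSO, at 0.375, 0.560 and 0.871 TPM, against 2.78, 2.30 and 3.13 in DTPs. In HCC2935 it stood at 2.46, 1.55 and 2.92 TPM against 7.91, 10.2 and 8.16, and in H1975 at 2.62, 3.13 and 4.30 against 5.60, 5.86 and 5.74. In HCC827 the DMSO libraries (2.64, 2.24 and 3.01 TPM) overlapped with the DTP libraries (3.63, 2.95 and 2.58), and the 0.18 of that line was not called. KDM6B behaved otherwise, with HCC2935 as the line without a call: there 31.6, 19.0 and 38.8 TPM under DMSO overlapped with 34.7, 46.9 and 31.2 in DTPs. In PC9 it stood at 7.60, 6.29 and 5.85 TPM against 18.6, 18.4 and 21.8, in HCC827 at 19.3, 15.03 and 17.2 against 48.2, 34.3 and 25.7, and in H1975 at 9.91, 16.7 and 11.7 against 32.0, 24.1 and 37.2. The DTP means were 36.1, 31.1 and 37.6 TPM in HCC827, H1975 and HCC2935 and 19.6 TPM in PC9.

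KDM5A, called higher in both arms of the 4 lines together, is shown by library. Its DMSO libraries held 12.2, 11.98 and 12.3 TPM in PC9, against 20.6, 15.5 and 17.03 in DTPs, which did not overlap. In HCC827 it held 14.4, 11.7 and 15.8 against 18.9, 13.9 and 18.1, and in H1975 6.60, 8.15 and 5.89 against 10.02, 8.87 and 6.98. Both of these lines overlapped, and neither was called in DTPs. HCC2935 held 11.1, 9.98 and 7.63 TPM against 11.9, 14.4 and 20.6, without overlap but also without a call (0.53). The call of the 4 lines together thus rested on changes of 0.25 to 0.53, of which the one in PC9 (0.28) was called alone.

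Methyltransferases outside PRC2 followed no single direction. KMT5A, which adds the first methyl group to H4K20 and is known for its control through the cell cycle, fell by 0.91 ± 0.070 in the acute arm and by 0.73 ± 0.084 in DTPs, and was lower in each line alone, from -0.54 to -0.97 in DTPs. KMT5B showed 0.07 and 0.01, neither called. Of the 7 genes grouped by family as H3K4 methyltransferases, 3 rose and 1 fell in the acute arm, and 1 rose and 2 fell in DTPs. Over all genes tested, 4971 of 14173 rose and 4422 fell in the acute arm, and 4106 of 14200 rose and 4165 fell in DTPs. Among the 7 genes, KMT2E had the largest called change (0.38, acute). On log2 TPM the DTP split of these 7 was 3 higher and none lower, so that no direction can be given for the group. Of the 9 other SET domain genes, SETDB1, an H3K9 methyltransferase, rose by 0.60 ± 0.068 and 0.37 ± 0.054, and SETD3, an actin histidine methyltransferase, fell by 0.49 ± 0.045 and 0.37 ± 0.065.

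Of 32 chromatin genes outside the member list, which act beside these enzymes, most that changed fell. In numbers, 5 rose and 17 fell in the acute arm, and 4 rose and 16 fell in DTPs, where 31.2% and 29.3% of all genes fell. UHRF1, which brings DNMT1 to replicated DNA, fell by 2.81 ± 0.18 in the acute arm and fell by 1.88 ± 0.13 in DTPs, and the H3K9 methyltransferase SUV39H1 by 1.53 ± 0.084 and 1.13 ± 0.092. KAT2B, an acetyltransferase, rose by 0.85 ± 0.21 in DTPs, and CBX7, a Polycomb reader, by 0.84 ± 0.10 in the acute arm.

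The lines were then fitted one at a time. Under acute osimertinib 44 members were called in PC9, 33 in HCC827, 30 in H1975 and 34 in HCC2935, against backgrounds of 68.5%, 42.3%, 44.9% and 47.1% of all genes in these lines (65.7%, 49.3%, 44.8% and 50.7% of the members). In DTPs the numbers were 42, 21, 30 and 32, that is 62.7%, 31.3%, 44.8% and 48.5% of the members tested against 71.3%, 36.7%, 45.7% and 52.5%. By direction, 20 members rose in HCC827 under the acute drug, where 20.2% of all genes rose. Among PC9 DTPs 27 members rose and 15 fell, against 35.4% and 35.9% of all genes. Among HCC2935 DTPs 15 rose and 17 fell, against 25.3% and 27.2%. Log2 TPM differences stood above the rescaled ones by 0.267 in PC9 and 0.172 in HCC2935. The splits of these lines on log2 TPM were not tested. The member with the largest acute rise was HDAC5 in PC9, HCC827 and H1975 and SIRT4 in HCC2935 (2.15), and the largest fall was that of EZH2 in PC9, H1975 and HCC2935 and of DNMT1 in HCC827 (-1.44). In DTPs HDAC5 led in PC9 (2.84) and HCC827 (1.41), KDM6B in H1975 (1.31) and KDM7A in HCC2935 (1.75), and the lowest were DNMT1 in PC9 (-1.14) and EZH2 in HCC827 (-1.004), H1975 (-1.38) and HCC2935 (-1.83). The 21 calls in HCC827 DTPs became 12 or 13 without DMSO replicate 1, 2 or 3 or DTP replicate 3 of that line.

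Members called the same way in all 4 lines were few. Under the acute drug 9 were higher (HDAC5, HDAC10, HDAC11, KDM4A, KDM5B, EZH1, SETDB1, SIRT2 and CREBBP), or 13.4% of members against 6.76% of all genes, and 6 were lower (EZH2, SUZ12, EED, DNMT1, KMT5A and SETD3), or 8.96% against 12.7%. In DTPs HDAC5 and SIRT2 were higher in all 4 (3.03% against 4.5%), and EZH2, SUZ12, EED, DNMT1, HDAC1 and KMT5A were lower in all 4 (9.09% against 7.59%). Calls in opposite directions in different lines were made in DTPs for 8 of 66 members, or 12.1% against 16%: DNMT3A, HDAC10, KDM1B, KDM4C, KMT2D, KMT5B, SETD5 and SETD7. KDM4C, for example, was higher in PC9 (0.58) and lower in HCC827 (-0.65).

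The test of the difference between lines was passed by 26 members in the acute comparison (38.8%) and by 42 in the DTP comparison (62.7%), where 40.5% and 61.6% of all genes passed. For HDAC9 the acute effect ran from 0.85 ± 0.13 in HCC827 to -1.33 ± 0.13 in HCC2935, and for TET3 from 0.64 ± 0.13 in HCC827 to -0.43 ± 0.078 in PC9. HDAC11 rose by 1.85 ± 0.091 in PC9 and by 0.76 ± 0.14 in HCC2935, and HDAC2 changed by -0.52 ± 0.065 in PC9 with 0.11 ± 0.096 in HCC827. In DTPs KDM1A fell by 0.77 ± 0.083 in PC9 with 0.12 ± 0.096 in H1975, and KDM2A rose by 0.53 ± 0.055 in PC9 with -0.18 ± 0.12 in HCC827. KDM4B rose by 0.91 ± 0.092 in PC9 and 0.96 ± 0.13 in H1975, with 0.02 ± 0.16 in HCC827.

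DTPs were next compared with the acute arm, that is 21 days with 24 h of the drug. Time under the drug, time in culture and survival of the drug cannot be told apart here. In the 4 lines together 20 members differed, or 29.9% against 38.8% of all genes, 4 higher and 16 lower. HDAC4 (0.65 ± 0.16), KDM4D (0.60 ± 0.15), SETD7 (0.56 ± 0.12) and SUZ12 (0.18 ± 0.048) were higher. HDAC10 (-0.52), HDAC5 (-0.50 ± 0.081), DNMT3A (-0.44), SIRT7 (-0.44) and KDM4C (-0.43) were lowest, and HDAC1 fell by 0.37 ± 0.061. Limma on log2 TPM split its calls otherwise, with 13 members higher and 7 lower, though none of the 20 called members changed sign. Log2 TPM differences stood above the rescaled ones by 0.263 in PC9 and 0.173 in HCC2935. The part of this shift in the other split was not tested. EZH2 and DNMT1 showed 0.13 ± 0.086 and 0.21 ± 0.097, neither called, whereas limma on log2 TPM called both higher (0.25 and 0.33, adjusted p of 0.0425 and 0.00814). DNMT1 was also called higher in HCC827 (0.42) and H1975 (0.51) alone. KDM5A was at -0.06 ± 0.086, not called, and at 0.05 on log2 TPM. The proliferation genes rose between these arms in 7 of 12 cases, where 2802 of all 14430 genes rose.

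The lines differed in this comparison. Calls numbered 22 of 67 in PC9, 13 in HCC827, 14 in H1975 and 25 in HCC2935, against backgrounds of 39.8%, 29.5%, 26.2% and 42.4%. In HCC2935, 21 of the 25 were lower, where 20.4% of all genes were lower. Log2 TPM differences stood above the rescaled ones by 0.173 in this line, and its split on log2 TPM was not tested. The highest and lowest called were TET1 (0.99) and KDM1A (-0.88) in PC9, KDM4D (0.85) and KDM4C (-0.83) in HCC827, KDM6B (0.75) and KDM4C (-0.83) in H1975, and SETD7 (1.38) and TET1 (-1.27) in HCC2935. HDAC5 was lower in each line alone, 1.49% of members against 1.41% of all genes, but in PC9 its TPM overlapped between the arms, and its -0.26 there is as large as the shift of 0.263 between the scales. The difference between lines passed for 33 members (49.3% against 52.4%). KDM1A fell in PC9 and rose in H1975 (-0.88 ± 0.11 and 0.49 ± 0.099), KDM4A fell in HCC2935 and rose in H1975 (-0.49 ± 0.11 and 0.36 ± 0.10), and HDAC9 rose in HCC2935 and fell in H1975 (1.01 ± 0.21 and -0.69 ± 0.15). HDAC2 rose in H1975 (0.52 ± 0.11), with -0.03 ± 0.062 in PC9. The count in HCC827 ran from 2 to 22 when single libraries were left out: it was 22 without DTP replicate 1 and 2 to 6 without any other library. In H1975 it was 3 without acute replicate 2, 7 without acute replicate 3 and 8 without DTP replicate 1 or 2. PC9 gave 14 without DTP replicate 1 or 3, and HCC2935 gave 15 without DTP replicate 3.

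One day after drug removal, 10 members differed from DTPs in the 4 lines together, 2 higher and 8 lower, or 14.9% against 15.1% of all genes; 8.17% of all genes were higher and 6.93% lower. EZH2 rose by 0.52 ± 0.091 and DNMT1 by 0.49 ± 0.086. KDM7A fell by 0.46 ± 0.12, KDM6B by 0.38 ± 0.11, HDAC5 by 0.31 ± 0.092, EZH1 by 0.31 ± 0.071 and KDM5B by 0.27 ± 0.068. The other called members were HDAC11 (-0.24), SIRT2 (-0.21) and KDM3B (-0.14), which all fell. On log2 TPM HDAC5 (-0.28, adjusted p = 0.0503) and HDAC11 (-0.21, adjusted p = 0.0685) were not called by limma. This comparison shares its DTP libraries with those of DTPs against DMSO and against the acute arm. The count rested on single lines and libraries. It was 3 without PC9, 5 without H1975, 4 without HCC2935 and 19 without HCC827, and 16 without HCC827 short washout replicate 1. SUZ12 (0.09), EED (0.11), KMT5A (0.13), HDAC1 (0.01) and KDM5A (-0.21 ± 0.085) were not called.

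The lines were also fitted alone. PC9 had 13 (19.4% against 22.2% of genes), with DNMT1 highest (0.40) and HDAC5 lowest (-0.73), and HCC2935 had 4 of 66 (6.06% against 3.52%), with EZH2 highest (1.10) and KDM7A lowest (-0.93). In PC9 the count was 6 without DTP replicate 2 or short washout replicate 2 and 7 without DTP replicate 3, and in HCC2935 it was 2 without short washout replicate 3. In HCC827 and H1975 edgeR called no member and 0.0% of genes; 0 and 8 members had an unadjusted p under 0.05, and DESeq2 called 0 and 2. The replicate numbers paired the libraries of H1975, and with that pairing as a block 9 members were called there, 4 higher and 5 lower. The share of all genes called was not computed for the DESeq2 and block fits. No member passed the test of a difference between lines by edgeR, which called 0.0248% of genes; 8 members had an unadjusted p under 0.05. EZH2 stood at 36.4, 39.0 and 45.9 TPM in HCC2935 after short washout, above all DTP libraries (19.4, 18.1 and 19.7), and at 19.6, 24.7 and 19.5 TPM in HCC827, where it overlapped with the DTP libraries.

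After the long washout 28 members differed from DMSO in the 4 lines together, 19 higher and 9 lower, or 41.8% against 50.8% of all genes. HDAC5 (1.07 ± 0.19), HDAC11 (0.76 ± 0.13), KDM6B (0.71 ± 0.20), KDM7A (0.65 ± 0.15) and KDM5B (0.57 ± 0.11) were highest. EZH2 (-0.89 ± 0.13), DNMT1 (-0.73 ± 0.086), HDAC9 (-0.58 ± 0.17), KMT5A (-0.56 ± 0.10) and HDAC1 (-0.53 ± 0.070) were lowest. SUZ12 and EED were each at -0.46, EZH1 at 0.29 ± 0.11, JARID2 at 0.18 and TET2 at 0.25, all called. Of the class II and IV HDACs 4 were higher and 1 lower, and of the sirtuins 3 and 1, where 3660 of all 14182 genes were higher and 3540 lower. DNMT3A (0.25), DNMT3B (-0.26), TET1 (0.39), TET3 (-0.03), EP300 (0.05), KDM5A (0.14), HDAC2 (-0.14), HDAC3 (-0.16) and SIRT1 (0.13) did not pass, while CREBBP (0.23) and KDM6A (0.27) did. Limma on log2 TPM called DNMT3A higher after the long washout (0.32, adjusted p = 0.0316). No test was made between long washout and DTPs.

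Taken one at a time, the lines differed widely. Calls numbered 8 of 67 in PC9 (11.9% against 30.6% of genes), 21 in HCC827 (31.3% against 39.7%), 37 in H1975 (55.2% against 55.0%) and 19 of 66 in HCC2935 (28.8% against 39.9%). SUZ12 was the only member lower in all 4 lines (1.52% of members against 2.46%), and no member was higher in all 4, which 2.53% of all genes were. HDAC5 (1.63) and HDAC9 (-0.93) were the extremes in PC9, HDAC5 (1.25) and EZH2 (-1.11) in HCC827, KDM6B (1.75) and EZH2 (-1.51) in H1975, and KDM4D (1.31) and EZH2 (-0.85) in HCC2935. In PC9 the count fell to 4, 2 and 1 without DMSO replicate 1, 2 and 3 and to 2 without long washout replicate 1, and in HCC2935 it was 12 without DMSO replicate 1. Levels of HDAC5 show the spread in PC9: the long washout libraries held 17.3, 9.01 and 34.8 TPM, all above DMSO, whereas those of HCC2935 held 11.98, 7.16 and 7.56 and overlapped with DMSO. In HCC827 they held 20.1, 22.7 and 24.5 TPM and in H1975 25.9, 25.1 and 25.6, all above DMSO.

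EZH2 was near its DMSO level in PC9 and below it in the other lines. In PC9 its long washout libraries held 41.9, 38.9 and 32.8 TPM and overlapped with DMSO, and the -0.11 ± 0.13 was not called. In HCC827 they held 14.3, 17.4 and 18.3 TPM, in H1975 15.5, 19.7 and 13.4, and in HCC2935 30.6, 41.7 and 33.6, all below DMSO. The summed proliferation genes moved beside it: their means after the long washout were 1239 TPM in PC9, 1067 in HCC2935, 608 in HCC827 and 500 in H1975, and their part was not tested. The test of the difference between lines was passed by EZH2 (adjusted p = 4.34e-05) and by 35 members in all (52.2% against 52.4%). DNMT3A was higher in H1975 (1.05 ± 0.11), with -0.26 ± 0.14 in HCC2935, and DNMT3B was lower in H1975 (-1.07 ± 0.12) and was higher in PC9 (0.48 ± 0.14). KDM4B was higher in H1975 (1.11 ± 0.12), with -0.07 ± 0.12 in HCC827. CREBBP was at 0.76 ± 0.11 in HCC827 and at -0.18 ± 0.087 in HCC2935.

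**Figure D4:**
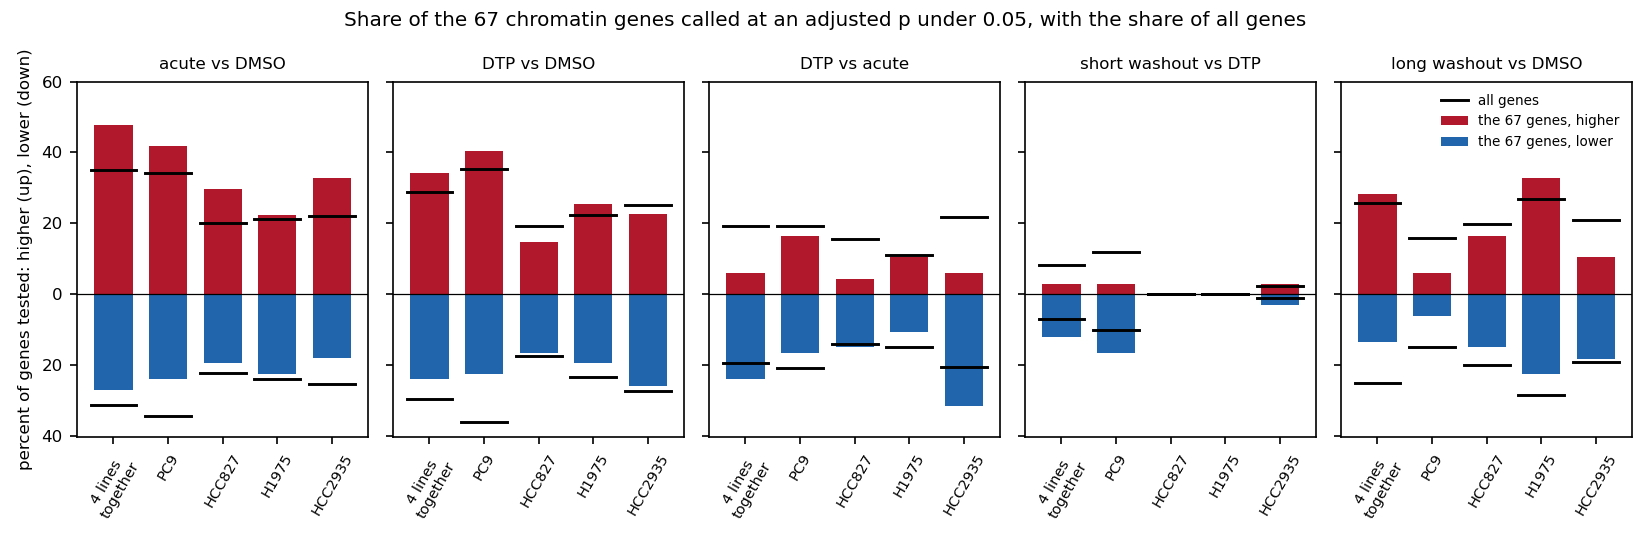
Percent of the 67 genes called higher (red, up) and lower (blue, down) at an adjusted p under 0.05 in the 4 lines together and in each line alone, for 5 comparisons, with black lines for the same percent over all genes tested. Most bars end near the black lines; in the acute comparison of the 4 lines together, 47.8% of the 67 genes were higher against 35.1% of all genes.

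The genome annotation sets limits for some members. The genes whose libraries are shown lie, in GRCh38 (GENCODE 29), at chromosome 17 from 44076746 to 44123702 (HDAC5, minus strand), chromosome 7 from 148807383 to 148884321 (EZH2, minus) and from 140084746 to 140177035 (KDM7A, minus), chromosome 17 from 42700275 to 42745049 (EZH1, minus) and from 7839904 to 7854796 (KDM6B, plus), chromosome 19 from 10133345 to 10231286 (DNMT1, minus), chromosome 1 from 32292086 to 32333635 (HDAC1, plus) and chromosome 12 from 280129 to 389454 (KDM5A, minus). Exons of 30 of the 67 members overlap with those of another gene, 24 of them on the opposite strand and 9 on the same strand, some on both. On the same strand KDM4A shares 2077 of its 5172 exon bases with AL451062.3, and KMT2A shares 5599 of 31305 with AP001267.5. Whether counting used the strand is not given in the sources used here. EZH2, HDAC1, SUZ12, TET1 and SETD6 have named pseudogenes with which they may share reads.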

How the data were processed

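RNA-Seq was available for 60 libraries. Of the 2 deposited tables, the first gives an estimated count, not always whole, for every gene and library without scaling between libraries, and the second gives log2 TPM, to which the authors had added 0.01. Up to 1 constant per gene and library, both tables hold the same length-scaled measure. Per the labels, the submitters' processing notes name HISAT2 2.1.0, Salmon 0.8.2 and hg38; their roles, the annotation and the use of strand are not given in the sources used here. TPM sums to 0.806 to 0.891 M per library. No column was left without a sample.

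Estimated counts were rounded and tested with edgeR 4.0.16 (R 4.3.3): TMM normalization, filterByExpr, quasi-likelihood F-test, Benjamini-Hochberg adjustment over all genes tested and calls at an adjusted p under 0.05. Each comparison was fitted to the 24 libraries of its arms with the line as covariate, to the same libraries with line by arm terms, and to the 6 libraries of each line. Standard errors are those implied by F. TPM values are shown without rescaling. Precision is limited by the spread between replicates, and for members under 1 TPM also by counting. The members and lists were chosen with earlier results of these data known. The text names the 5 highest and 5 lowest members called in each joint comparison, the extremes of each line, the 5 lowest p-values for line differences and a list of 21 members; further members complete a list or an example and were chosen after their values were seen. Fits were tested on simulated DTP and DMSO libraries. Changes of 1.5 times were recovered for 83% of 100 genes by the joint fit, 26% in PC9 alone and 24% in HCC827 alone. For changes of 2 times these shares were 95%, 70% and 69%. The test of line differences recovered 10% and 55%. False calls made up 2.2%, 7.69%, 3.12% and 7.14% of the calls of these 4 fits. A missing call in a single line thus does not show an absence of change.

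Same-numbered libraries were judged to be paired only where every correlation of their deviations from the group means exceeded 0.1. This held in 3 of 20 line comparisons: acute against DMSO in HCC2935 (0.129 to 0.359), and short washout against DTPs in HCC827 (0.404 to 0.697) and H1975 (0.253 to 0.602). The main fits did not use this pairing, also in those comparisons, and a replicate block was run as an alternative for every comparison. Alternatives were DESeq2 1.42.0, RLE size factors, no filter, limma 3.58.1 on log2 TPM, a replicate block, the mean of the line contrasts, all 15 libraries of a line, and leaving out each line or library. Figures and tables used Python 3.11.15 and matplotlib 3.10.9. Promoters are from RefSeq (GRCh38.p14), and gene positions from GENCODE 29.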

Additional observations from a re-analysis of the deposited data

Results flagged for a closer look

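A difference between lines, tested as the line by arm terms in edgeR, was found in 4 of the 5 comparisons. It concerned 26 members for acute osimertinib against DMSO, 42 for DTPs against DMSO, 33 for DTPs against acute and 35 for long washout against DMSO, shares close to those of all genes.

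Under acute osimertinib the adjusted p of the difference was 2.06e-05 for HDAC9, 8.51e-05 for TET3, 1.28e-04 for HDAC5, 3.90e-04 for HDAC11 and 8.03e-04 for HDAC2. HDAC9 and TET3 changed in opposite directions in different lines, whereas HDAC5 and HDAC11 rose in all 4 and most in PC9.

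For DTPs against DMSO it was 5.27e-06 for HDAC11, 5.94e-05 for KDM1A, 6.50e-05 for HDAC5, 7.67e-05 for KDM2A and 3.93e-04 for KDM4B. In PC9 HDAC11 rose by 1.74 ± 0.089, where H1975 had 0.22 ± 0.14 without a call.

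Between DTPs and the acute arm it was 5.96e-06 for KDM1A, 1.37e-05 for SETD7, 6.57e-05 for KDM4A, 2.76e-04 for HDAC2 and 5.20e-04 for HDAC9. SETD7, a lysine methyltransferase, rose by 1.38 ± 0.11 in HCC2935, 0.55 ± 0.14 in H1975 and 0.37 ± 0.065 in PC9, and was at -0.02 ± 0.13 in HCC827.

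After the long washout it was 5.61e-06 for DNMT3A, 9.72e-06 for DNMT3B, 2.38e-05 for KDM4B, 4.34e-05 for EZH2 and 5.19e-05 for CREBBP. The washout lasted for a different number of days in each line, so line and time cannot be told apart here.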

How the results depend on the processing

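Of 4862 refits of 185 results for single members, none reversed a call, 4676 kept their side of the threshold, 116 lost the call and 70 gained one. Estimates called in neither fit could change sign and were counted as kept. KDM5A in DTPs against acute, for example, was at -0.06 and on log2 TPM at 0.05. Limma on log2 TPM turned the split for DTPs against acute from 4 higher and 16 lower to 13 and 7, that of DTPs against DMSO from 23 and 16 to 30 and 9, and that of the H3K4 methyltransferases in DTPs from 1 and 2 to 3 and 0. Total counts of calls moved by over 1.5 times as follows, in refits for which the share of all genes called was not computed. DESeq2 called 16 members in place of 10 in the short washout of the 4 lines together, 2 in place of 0 in H1975 and 7 in place of 4 in HCC2935. A replicate block gave 8 in place of 13 for DTPs against acute in HCC827, 2 in place of 0 for line differences in the short washout and 9 in place of 0 in H1975; it moved no other count by that much. A fit of all 15 libraries of a line gave 23 in place of 14 for DTPs against acute in H1975, 2 in place of 13 for the short washout in PC9 and 18 in place of 8 for the long washout in PC9. The short washout count of 10 became 3 without PC9, 19 without HCC827, 5 without H1975 and 4 without HCC2935. Leaving out single libraries moved the counts from 12 to 16 (DTPs against DMSO, HCC827), 14 to 20 (DTPs against acute, PC9), 2 to 22 (HCC827), 3 to 16 (H1975) and 15 to 22 (HCC2935), 8 to 16 (short washout, 4 lines), 6 to 11 (PC9), 0 to 1 (H1975) and 2 to 4 (HCC2935), and 1 to 10 (long washout, PC9) and 12 to 17 (HCC2935). The single call in H1975 came without DTP replicate 2. The causes were not tested. Line differences rest on 3 libraries per group, and members under 1 TPM on few counts.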

Other observations

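Over the 32 chromatin genes outside the member list, 10 rose and 5 fell from the acute arm to DTPs, 6 rose and 4 fell one day after drug removal, and 3 were higher and 12 lower than DMSO after the long washout. Of all genes, 2802 of 14430 rose and 2795 fell from the acute arm to DTPs. One day after removal 1182 of 14467 rose and 1002 fell, and after the long washout 3660 of 14182 were higher and 3540 lower. UHRF1, the partner of DNMT1, rose by 0.85 ± 0.13 one day after removal and was at -1.15 ± 0.15 against DMSO after the long washout, and SUV39H1 stood at 0.44 ± 0.090 and -0.74 ± 0.12. The acetyltransferase KAT2B fell by 0.54 ± 0.14 and stood at 0.57 ± 0.23. All 12 proliferation genes were lower than DMSO after the long washout of the 4 lines together, and 7 of 12 rose one day after removal.

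HCC827 differed from the other lines in the ERK feedback genes. In DTPs DUSP6 was at -0.34 ± 0.35 and SPRY4 at -0.96 ± 0.38 in HCC827, neither called, while both fell in each of the other lines, by 2.90 to 4.82 for DUSP6. After its 4 days of washout DUSP6 was higher than DMSO in HCC827 (0.57 ± 0.17) and lower in PC9 (-3.17 ± 0.65), H1975 (-3.06 ± 0.61) and HCC2935 (-2.99 ± 0.22). All 12 proliferation genes were lower than DMSO in HCC827 DTPs and after its long washout.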
